A study of Mus musculus with 6 samples.

Results

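The major urinary proteins were followed in mouse liver through the 34 rows of the deposited gene count table, of 20107 in all, whose symbol is Mup followed by a digit or a hyphen. Of these rows, 16 are the closely alike protein-coding genes of the middle of the cluster (the central genes: Mup1, Mup2, Mup7 to Mup19 and Mup22), 5 are the more divergent genes at and near its ends (the peripheral genes: Mup3, Mup5, Mup6, Mup20 and Mup21) and 13 are pseudogenes. The rows were taken by name. By the coordinates of the table (mm10), 33 of the 34 rows lay on chromosome 4 between 59964294 and 62150863, and 1, Mup-ps22, lay on chromosome 11.

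The livers came from male C57BL/6N littermates, wild type by their labels and 16 weeks old. One group had been fed a high-fat, high-calorie, fructose-containing food with a fructose drink from 8 weeks of age, for 8 weeks (HFHC, replicates 1, 2 and 3), and the other group had been fed chow (Chow, replicates 7, 8 and 9). The groups shared strain, sex, age and tissue, and 3 mice stood for each diet. Each library was a stranded, ribosomal-RNA-depleted total RNA library, and held between 26767416 and 30871297 counts.

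Major urinary proteins are small secreted lipocalins, barrel-shaped carriers that bind volatile pheromones. The liver makes them, the blood carries them to the kidney, and male mice excrete them in large amounts in urine, where they serve in scent marking and individual recognition. Hepatic Mup transcription is known to depend on pulsatile growth hormone acting through the kinase JAK2 and the transcription factor STAT5b, with androgen, thyroid hormone and glucocorticoid as further inputs. Mup20 encodes darcin, a male pheromone that attracts females.

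The difficulty with this family is how alike its members are, so their sequences come before their counts. Coding sequences taken from GENCODE M21 on the same build were aligned end to end, each gapped base counting as a difference. Among the 16 central genes, identity ran from 98.3% to 99.8% over 120 pairs (median 99.1%), and 17 of 540 aligned coding sites varied at all. Among the 5 peripheral genes it ran from 83.0% to 94.9% (median 87.9%, 10 pairs), and between central and peripheral genes from 82.6% to 91.3% (median 89.6%, 80 pairs). A stretch of 75 bases, the length of a sequencing read in these libraries, from exon 2 shows how central and peripheral genes part. Each line is 5′ to 3′ on the coding strand, and capitals mark bases that differ from Mup19. For Mup19 it covers coding bases 112 to 186, chr4:61781635-61781709, on the minus strand.
Mup19: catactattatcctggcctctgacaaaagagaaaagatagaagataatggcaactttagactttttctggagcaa
Mup22: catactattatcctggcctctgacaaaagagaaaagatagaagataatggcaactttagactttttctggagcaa
Mup7: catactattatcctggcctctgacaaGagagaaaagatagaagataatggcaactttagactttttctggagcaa
Mup20: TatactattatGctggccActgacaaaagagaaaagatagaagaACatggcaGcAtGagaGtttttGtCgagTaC
Mup3: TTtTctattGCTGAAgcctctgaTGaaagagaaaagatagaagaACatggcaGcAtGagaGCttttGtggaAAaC
Mup21: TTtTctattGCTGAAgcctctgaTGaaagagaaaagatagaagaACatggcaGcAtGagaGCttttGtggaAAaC
Mup5: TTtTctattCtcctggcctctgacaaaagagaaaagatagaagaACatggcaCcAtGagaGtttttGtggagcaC
Mup6: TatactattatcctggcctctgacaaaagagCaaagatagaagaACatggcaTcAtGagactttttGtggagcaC

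The Mup19 stretch was present in the transcripts of 12 genes, so a read from it could not have told them apart. Mup7 differed from it by A27G (the base in Mup19, the position counted from 1 at the 5′ end of the stretch, and the base in Mup7), and that variant was present in no other gene. The Mup20 stretch was shared with 1 other gene. The stretch common to Mup3 and Mup21 was present in those 2 genes alone, and the stretches of Mup5 and Mup6 were not shared.

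A stretch of exon 1, which lies over coding bases 8 to 82 of Mup19 (chr4:61782077-61782151, minus strand), shows how little separates the central genes. The 7 forms among the 16 genes are printed for 1 gene each, again with capitals for bases that differ from Mup19.
Mup19: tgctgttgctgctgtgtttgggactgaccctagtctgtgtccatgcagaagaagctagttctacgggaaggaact
Mup2: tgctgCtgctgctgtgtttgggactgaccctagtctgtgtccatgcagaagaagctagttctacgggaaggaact
Mup10: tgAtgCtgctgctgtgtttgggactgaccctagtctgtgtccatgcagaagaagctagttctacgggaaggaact
Mup1: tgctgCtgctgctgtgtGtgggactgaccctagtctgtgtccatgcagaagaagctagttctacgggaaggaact
Mup12: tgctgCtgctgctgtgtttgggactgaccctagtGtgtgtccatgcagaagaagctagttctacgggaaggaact
Mup8: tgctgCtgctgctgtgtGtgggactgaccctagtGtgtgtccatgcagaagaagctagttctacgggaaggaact
Mup7: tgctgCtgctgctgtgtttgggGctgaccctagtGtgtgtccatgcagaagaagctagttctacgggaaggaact

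The Mup19 form was shared with Mup13, Mup15 and Mup16 (4 genes), and the Mup2 form with Mup9, Mup11, Mup17, Mup18 and Mup22 (6 genes). The Mup7 form was shared with Mup14 alone, and the other 4 forms belonged to 1 gene each.

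Over whole transcripts, the share of 75-base windows found in no other annotated gene measured how well a row could be told from its relatives. It was 0% for Mup2, Mup15, Mup19 and Mup22, and between 5.4% and 31.3% for the other 12 central genes. It was 93.2% for Mup3, 95.4% for Mup5, 100.0% for Mup6 and 89.7% for Mup21. Mup20 had 56.4% unique windows, and the other 43.6% were shared with the pseudogene Mup-ps19. The counting left a trace of this: 64.7% of the Mup values were not whole numbers (further than 0.01 from one), against 22.4% of all values in the table. In 14 of 34 Mup rows none of the 6 values was whole. Values of 100000 or more are written to 6 significant digits, so 4 rows (Mup3, Mup7, Mup20 and Mup22) lie wholly in the range where this could not be judged. How reads were shared out among copies is not given in the sources used here, so the values of single central genes and pseudogenes are uncertain, and sums over classes are less exposed to that division.

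Levels are given as CPM, counts scaled to a TMM-adjusted library of 1000000 counts. On this scale 3 counts correspond to 0.095 to 0.114 CPM, a limit that covers counting error only. The family summed to 37359, 37352 and 54203 CPM in HFHC replicates 1, 2 and 3, and to 38522, 46570 and 36012 CPM in Chow replicates 7, 8 and 9. As a share of all counts this was 3.80%, 3.81% and 5.37% against 3.79%, 4.72% and 3.49%. HFHC replicate 3 was highest and Chow replicate 8 next, and the other 4 livers of both diets lay close together. The share was 4.33% ± 0.902 (SD, n = 3) with HFHC and 4.0% ± 0.638 (SD, n = 3) with chow (two-sided exact permutation p = 0.5, of which 0.1 is the smallest that 3 against 3 can give). In edgeR's quasi-likelihood fit, with the family entered as 1 row, the log2 fold change was 0.09 ± 0.17 (SE, adjusted p = 0.801), and an interval of 2 SE either side ran from -0.24 to 0.42. Without HFHC replicate 3 the estimate was -0.11. A change of the family as a whole was not detectable with these 6 livers.

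The 16 central genes summed to 24286, 26354 and 38578 CPM with HFHC and to 21405, 30751 and 19899 CPM with chow. Chow replicate 8 stood above 2 of the 3 HFHC livers, and the other 2 chow livers stood below all 3. The log2 fold change was 0.31 ± 0.21 (SE, edgeR adjusted p = 0.429), 0.53 when Chow replicate 8 was left out (adjusted p = 0.131) and 0.077 when HFHC replicate 3 was (adjusted p = 0.855). Without Chow replicate 9 it was 0.19.

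The 5 peripheral genes summed to 13067, 10989 and 15614 CPM with HFHC and to 17113, 15814 and 16106 CPM with chow. All 3 HFHC livers lay below all 3 chow livers. The log2 fold change was -0.31 ± 0.13 (SE), with an unadjusted p of 0.0408 and an edgeR adjusted p of 0.20, so it did not pass the threshold of 0.05 on the adjusted p that is used throughout. It was -0.18 without HFHC replicate 2 and -0.44 without HFHC replicate 3. The exact permutation test of the share gave 0.1, the smallest it can give.

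The 13 pseudogenes were scarce, with sums of 191, 268 and 323 counts with HFHC and 105, 149 and 168 counts with chow. Their log2 fold change was 0.70 ± 0.23 (SE, edgeR adjusted p = 0.102, but 0.0265 with DESeq2).

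**Figure D1:**
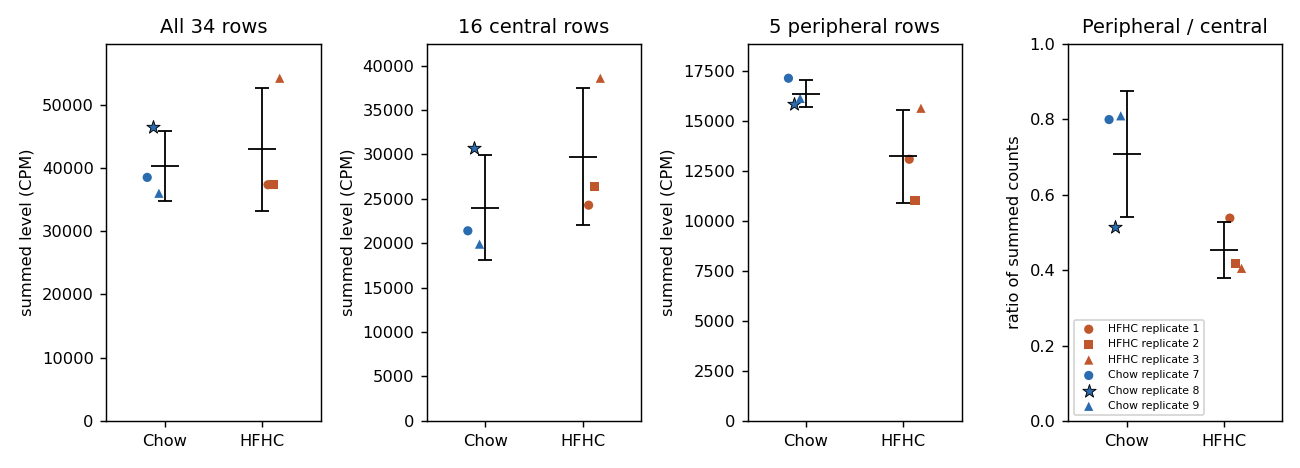
Summed level of all 34 Mup rows, the 16 central rows and the 5 peripheral rows (CPM), and the ratio of peripheral to central counts, in each liver; points are livers, bars the mean and SD of 3. The peripheral sums of the HFHC livers lie below those of the chow livers, and Chow replicate 8 (star) has the highest central sum and the lowest ratio of its group.

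The opposite directions of the sums made the balance of the family differ between livers. There were 0.538, 0.417 and 0.405 peripheral counts for each central count in HFHC replicates 1, 2 and 3, and 0.80, 0.514 and 0.809 in Chow replicates 7, 8 and 9. Chow replicate 8 fell inside the HFHC range, and the other 2 chow livers lay above it. The log2 ratio was -1.15 ± 0.23 (SD, n = 3) with HFHC and -0.53 ± 0.37 (SD, n = 3) with chow, a difference of -0.62 (two-sided exact permutation p = 0.2, with 0.1 the smallest possible).

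The order of levels within the family was compared per kilobase of transcript. In chow livers Mup7 led with 10464 CPM per kb, followed by Mup3 with 9075, Mup20 with 7622 and Mup22 with 6407. Mup14 (2493 CPM per kb), Mup11 (2424) and Mup19 (1719) came next, and the other 27 rows lay at 756 or below. The first 2 did not differ beyond their spread in CPM, 9700 ± 2025 (SD, n = 3) for Mup7 and 8930 ± 423 (SD, n = 3) for Mup3, and neither did Mup14 (2306 ± 874) and Mup11 (2254 ± 597). In HFHC livers Mup19, at 3920 CPM per kb, came next after those 4, ahead of Mup14 at 3260 and Mup11 at 2432. Mup7, Mup3, Mup20 and Mup22 together held most of the family's counts under both diets, with means of 23.5%, 17.4%, 13.2% and 13.5% of the family with HFHC and 23.9%, 22.4%, 17.7% and 13.8% with chow. At the other end, Mup5 was at 0.034 to 0.101 CPM, at or below the level of 3 counts in every liver.

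**Figure D2:**
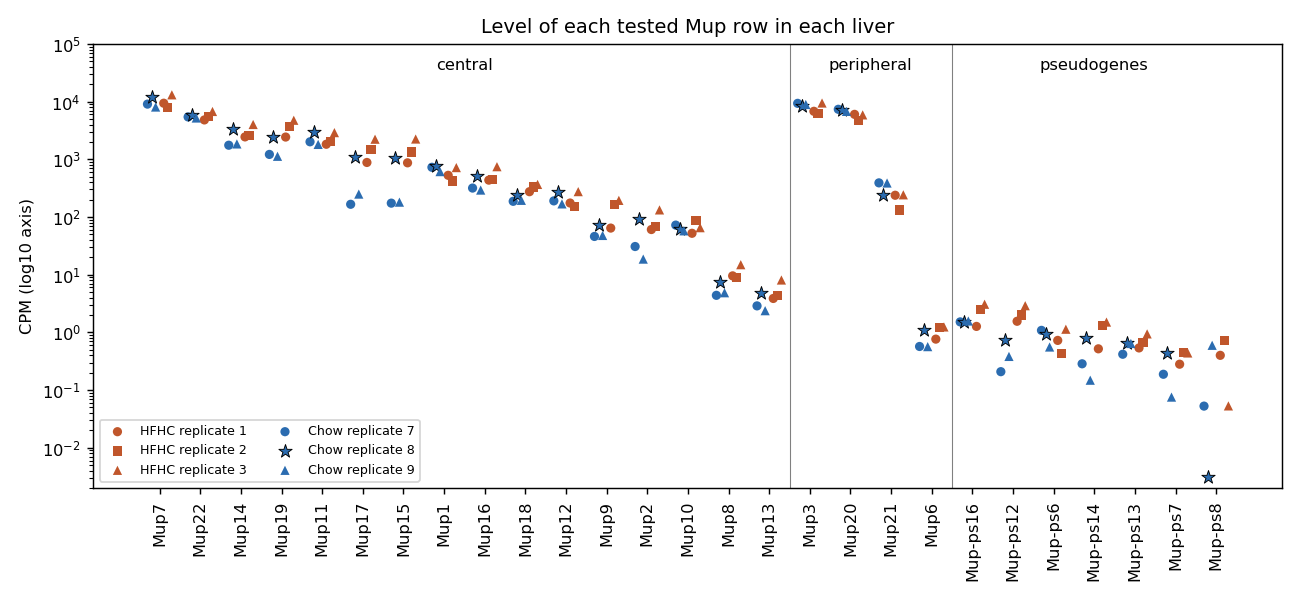
Level of the 27 Mup rows that passed the filter on low counts in each of the 6 livers (CPM, log10 axis), ordered by class and mean level; each point is 1 liver. Mup15 and Mup17 in Chow replicates 7 and 9 sit apart from the other 4 livers; the lowest point, for Mup-ps8, is a fraction of a count shared out by the counting.

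Of the 34 rows, 27 passed the filter on low counts: all 16 central genes, 4 peripheral genes and 7 pseudogenes. Of the tested rows, 4 were higher with HFHC and 0 lower by edgeR's quasi-likelihood test at an adjusted p under 0.05. Among all 14896 genes tested, 3.38% were called higher and 3.3% lower. On the lower side 2 rows had an unadjusted p under 0.05, Mup20 (0.012) and Mup21 (0.013). DESeq2 called 1 row lower, Mup20, and 3 higher, and limma-voom with sample weights called 0 lower and 6 higher. Counted by direction alone, 21 of the 27 had a positive log2 fold change and 6 a negative one, with a median of 0.54, against -0.003 over all genes tested. By class, the estimates were positive for 14 of 16 central genes (median 0.59), 1 of 4 peripheral genes (median -0.30) and 6 of 7 pseudogenes (median 0.72). Since the central rows share reads, these counts are not over independent genes. The HFHC and chow livers did not overlap for 3 rows on the higher side (Mup8, Mup18 and Mup-ps12) and 1 on the lower side (Mup20), where 27.8% of all tested genes had groups that did not overlap.

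**Figure D3:**
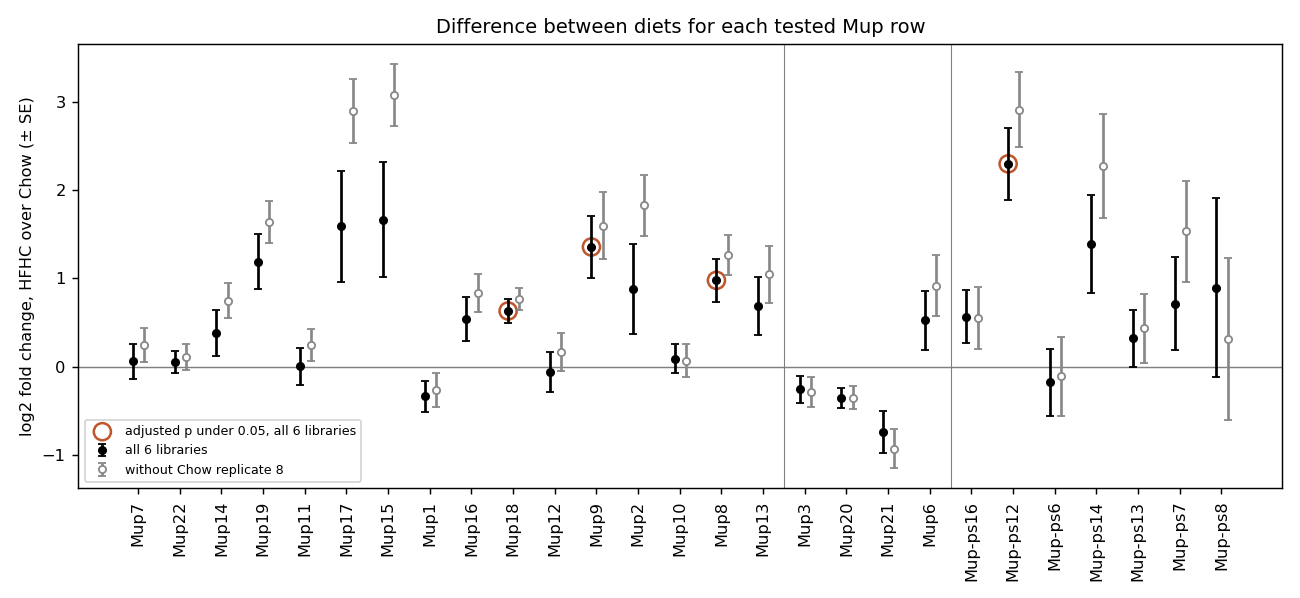
Log2 fold change of HFHC over chow for each tested Mup row with its SE, from all 6 libraries (filled) and without Chow replicate 8 (open); rings mark the 4 rows with an adjusted p under 0.05. Without that liver the estimates of Mup15 and Mup17 move from 1.67 to 3.08 and from 1.59 to 2.89.

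These results moved with single livers, of which Chow replicate 8 is described first. Chow replicate 8 lay apart from the other chow livers on the second principal component of all tested genes (16.6% of the variance), at -30.36 against 11.19 and 11.94. It was above both other chow livers in 15 of 16 central genes, 1 of 4 tested peripheral genes and 4 of 7 tested pseudogenes, where this held for 35.2% of all tested genes. Without it, 9 of 28 tested Mup rows were called higher and 1 lower, where 3.46% and 3.63% of all tested genes were. The 9 were the central genes Mup2, Mup8, Mup9, Mup15, Mup16, Mup17, Mup18 and Mup19 and the pseudogene Mup-ps12, and the row called lower was Mup21. Other livers moved the count the other way. Without HFHC replicate 2, HFHC replicate 3, Chow replicate 7 or Chow replicate 9, 1 row was called higher in each fit. Without HFHC replicate 1 the count stayed at 4.

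Among the abundant central genes, the first 2 were level between the diets. Mup7 (chr4:60066469-60070475) read 9399, 7898 and 13134 CPM with HFHC and 9066, 11967 and 8069 CPM with chow. The ranges overlapped, and the log2 fold change was 0.06 ± 0.20 (SE, edgeR adjusted p = 0.887). Mup22 (chr4:60817589-60821463) read 4822, 5595 and 6758 CPM against 5433, 5910 and 5207 CPM. Its groups overlapped too, at 0.05 ± 0.13 (SE, edgeR adjusted p = 0.852).

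Mup11 and Mup14 were of similar level in chow. Mup11 read 1825, 2054 and 2905 CPM with HFHC and 2014, 2934 and 1814 CPM with chow, a log2 fold change of 0.00 ± 0.21 (SE, edgeR adjusted p = 0.993). Mup14 read 2449, 2577 and 4019 CPM against 1756, 3314 and 1849 CPM, at 0.39 ± 0.26 (SE, edgeR adjusted p = 0.432). In each, Chow replicate 8 was the highest chow liver and lay inside the HFHC range only for Mup14.

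Mup19 (chr4:61778324-61782269) had the largest gain in its share of the family, from a mean of 3.84% with chow to 8.41% with HFHC. It read 2434, 3711 and 4758 CPM with HFHC and 1217, 2435 and 1129 CPM with chow. The lowest HFHC liver and Chow replicate 8 read alike, and the other chow livers were below. The log2 fold change was 1.19 ± 0.31 (SE, edgeR adjusted p = 0.0536) and narrowly missed the threshold. It passed with limma-voom (1.21, adjusted p = 0.0255) and not with DESeq2 (adjusted p = 0.097), and was 1.64 without Chow replicate 8 (edgeR adjusted p = 0.00506). Of the 6 edgeR fits that each left out 1 liver, Mup19 was called in 2, with adjusted p-values up to 0.175.

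Mup15 and Mup17 had the widest range among abundant members. Mup17 (chr4:61591929-61595871) read 883, 1488 and 2232 CPM with HFHC and 166, 1114 and 250 CPM with chow. Mup15 (chr4:61435790-61439743), named here after its values were seen, read 870, 1342 and 2250 CPM against 174, 1052 and 181 CPM. In both genes Chow replicate 8 was above HFHC replicate 1, and the other chow livers were several times lower than every HFHC liver. With all libraries the log2 fold changes did not pass edgeR's test, at 1.59 ± 0.63 for Mup17 and 1.67 ± 0.65 for Mup15 (SE, edgeR adjusted p = 0.172 and 0.169). Both passed on all libraries with limma-voom and sample weights, at 2.09 for Mup17 (adjusted p = 0.0408) and 2.21 for Mup15 (adjusted p = 0.0347), and neither passed with DESeq2 (adjusted p = 0.344 and 0.343). Without Chow replicate 8 the edgeR values were 2.89 (adjusted p = 0.00254) and 3.08 (adjusted p = 0.00157). Of the 6 edgeR fits that each left out 1 liver, each gene was called in that 1 alone. In the others the estimates went down to 1.17 for Mup17 and 1.24 for Mup15, with adjusted p-values up to 0.372 and 0.371. Mup15 has no unique window and Mup17 31.3%, the highest share of any central gene.

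The 3 central genes called higher were of low to middle level. Mup18 (chr4:61670177-61674136) read 275, 331 and 367 CPM with HFHC and 187, 245 and 195 CPM with chow. Every HFHC liver was above every chow liver, and the log2 fold change was 0.63 ± 0.13 (SE, edgeR adjusted p = 0.0248). Mup9 (chr4:60418046-60421952) read 64.3, 166 and 194 CPM against 46.0, 71.7 and 47.9 CPM. The lowest HFHC liver fell below Chow replicate 8, and the log2 fold change was 1.36 ± 0.35 (SE, edgeR adjusted p = 0.0486). That call was lost with DESeq2 (adjusted p = 0.0693) and with limma-voom (adjusted p = 0.0969). Mup8 (chr4:60218621-60222599) read 9.54, 8.88 and 14.9 CPM against 4.39, 7.60 and 4.86 CPM. The groups did not overlap, and the log2 fold change was 0.98 ± 0.24 (SE, edgeR adjusted p = 0.0459). These calls rested on the full set of libraries: of the 6 fits that each left out 1 liver, Mup18 was called in 2, Mup9 in 2 and Mup8 in 1, with adjusted p-values up to 0.102, 0.163 and 0.153.

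The other central genes were Mup1, Mup2, Mup10, Mup12, Mup13 and Mup16. Their log2 fold changes ran from -0.33 for Mup1 to 0.88 for Mup2, and none passed the test with all libraries. Mup2 was the most spread, with 60.7, 68.7 and 133 CPM with HFHC and 30.8, 92.5 and 18.6 CPM with chow. Mup1 was the only one of the 16 besides Mup12 with a negative estimate.

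Most of the peripheral genes can be told apart by sequence, and none was called with all libraries by edgeR. Mup20 (chr4:62050234-62054158), the darcin gene, read 6023, 4678 and 5900 CPM with HFHC and 7372, 7067 and 6781 CPM with chow. All HFHC livers were below all chow livers. The log2 fold change was -0.35 ± 0.11 (SE, edgeR adjusted p = 0.102), and it stayed between -0.41 and -0.24 when any 1 liver was left out, without passing edgeR's test. With DESeq2 it passed on all libraries (-0.35, adjusted p = 0.0259). Mup-ps19, with which it shares windows, was at 0.207 CPM or less in every liver.

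Mup3 (chr4:62083476-62087342) read 6804, 6178 and 9470 CPM with HFHC and 9350, 8503 and 8936 CPM with chow. HFHC replicate 3 was above every chow liver and the other 2 were below, and the log2 fold change was -0.25 ± 0.15 (SE, edgeR adjusted p = 0.370). Mup21 (chr4:62147932-62150863) read 238, 132 and 243 CPM against 391, 242 and 389 CPM. Chow replicate 8 read almost the same as the highest HFHC liver. The log2 fold change was -0.74 ± 0.24 (SE, edgeR adjusted p = 0.109), -0.93 when Chow replicate 8 was left out (adjusted p = 0.0358) and -0.50 when HFHC replicate 2 was (adjusted p = 0.192).

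Mup6 (chr4:59964294-60007274), at the other end of the cluster from Mup21, was expressed at a low level, with 15 to 38 counts in each liver. It read 0.763, 1.22 and 1.24 CPM with HFHC and 0.569, 1.09 and 0.566 CPM with chow, and its groups overlapped (log2 fold change 0.53 ± 0.33, SE, edgeR adjusted p = 0.406). Mup5, with 1 to 3 counts in each liver, was not tested.

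Of the pseudogenes, Mup-ps12 (chr4:61452244-61454952, plus strand) had the firmest call of the family. It read 1.56, 2.01 and 2.90 CPM with HFHC and 0.208, 0.740 and 0.383 CPM with chow. The groups did not overlap, and the log2 fold change was 2.30 ± 0.41 (SE, edgeR adjusted p = 0.0121). It was called in all 6 fits that left out 1 liver, with an adjusted p of at most 0.0468. Of its windows, 37.7% were unique and 53.3% were shared with Mup-ps14, which read 0.518, 1.30 and 1.51 CPM against 0.285, 0.784 and 0.148 CPM and was not called (1.39 ± 0.55, SE, edgeR adjusted p = 0.176). The other 5 tested pseudogenes had log2 fold changes from -0.17 to 0.90 and were not called. The 6 untested ones stayed at or below 0.369 CPM, except Mup-ps17 at 1.93 CPM in Chow replicate 9. Mup-ps23 was at 0 in the 3 chow livers and in HFHC replicate 2.

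Along the chromosome, the largest estimates lay in the second run of central genes, from Mup13 (start 61224307) to Mup19 (start 61778324). In this run the log2 fold changes were 0.69 for Mup13, 0.39 for Mup14, 1.67 for Mup15, 0.54 for Mup16, 1.59 for Mup17, 0.63 for Mup18 and 1.19 for Mup19, all positive. Mup-ps12 and Mup-ps14 lie within the run, next to Mup15 and Mup17. In the first run, from Mup7 to Mup22, the estimates were mixed, from -0.33 for Mup1 to 1.36 for Mup9. The negative estimates of Mup20, Mup3 and Mup21 came from neighbours at the far end. Neighbours in the second run share windows, so their values are not separate measurements, and the contrast of the runs was seen after the fact and not tested.

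**Figure D4:**
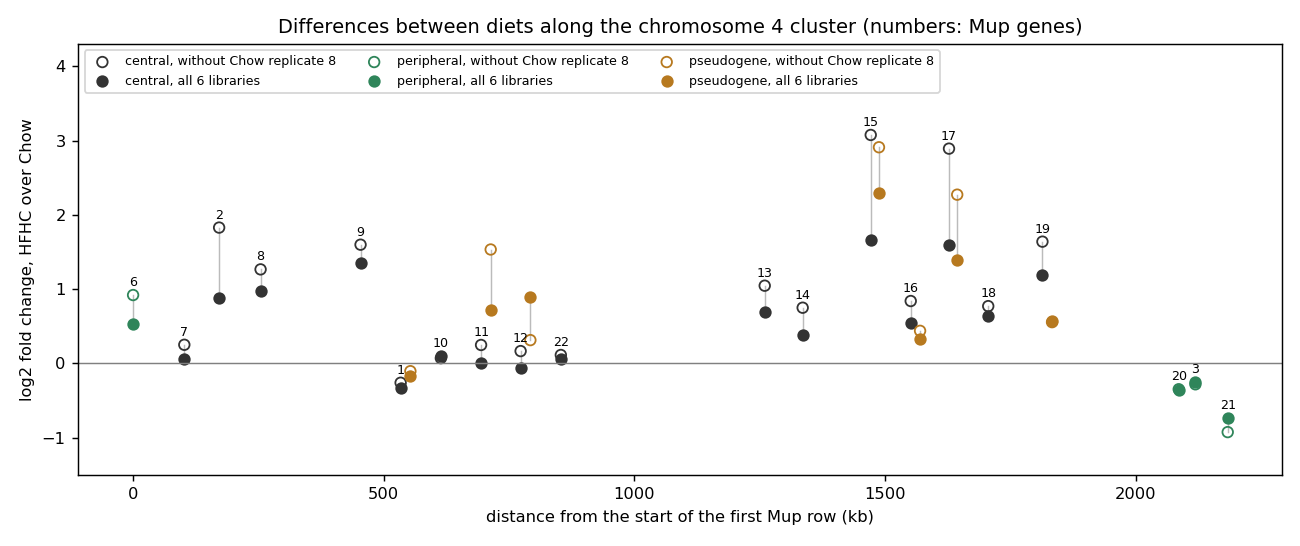
Log2 fold change of HFHC over chow for the tested Mup rows on chromosome 4 against the distance of each row's start from the first (kb), with all 6 libraries (filled) and without Chow replicate 8 (open). Mup15, Mup17 and Mup19 have the highest estimates among the coding genes of the right-hand run of central genes, and Mup20, Mup3 and Mup21 at the far end lie below 0.

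Sequence upstream of the starts was examined for what the members of the run share. RefSeq promoters (GRCm38.p6, 250 bases before to 50 after the annotated start) matched 13 members: Mup2, Mup3, Mup6, Mup7, Mup9, Mup10, Mup11, Mup14, Mup15, Mup17, Mup18, Mup19 and Mup21. Those of Mup19, Mup18, Mup3 and Mup21 are shown, as 2 central genes that were higher or near the threshold and 2 peripheral genes with negative estimates. They are printed 5′ to 3′ on the minus strand, with the TATA-like letters TATATAA in capitals, at chr4:61782175-61782474, chr4:61674045-61674344, chr4:62087268-62087567 and chr4:62150792-62151091 in that order.
Mup19: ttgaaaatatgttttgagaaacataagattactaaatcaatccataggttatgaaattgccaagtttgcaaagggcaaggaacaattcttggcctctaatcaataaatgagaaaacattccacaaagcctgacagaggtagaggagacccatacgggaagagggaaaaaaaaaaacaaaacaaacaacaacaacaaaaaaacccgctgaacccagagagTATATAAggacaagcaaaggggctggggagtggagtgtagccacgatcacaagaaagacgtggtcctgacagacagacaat
Mup18: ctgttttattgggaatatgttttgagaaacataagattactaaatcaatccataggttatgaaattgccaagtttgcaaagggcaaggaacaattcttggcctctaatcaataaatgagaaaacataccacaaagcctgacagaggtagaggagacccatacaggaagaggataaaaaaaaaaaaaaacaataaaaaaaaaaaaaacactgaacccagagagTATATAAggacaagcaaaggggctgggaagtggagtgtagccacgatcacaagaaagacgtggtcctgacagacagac
Mup3: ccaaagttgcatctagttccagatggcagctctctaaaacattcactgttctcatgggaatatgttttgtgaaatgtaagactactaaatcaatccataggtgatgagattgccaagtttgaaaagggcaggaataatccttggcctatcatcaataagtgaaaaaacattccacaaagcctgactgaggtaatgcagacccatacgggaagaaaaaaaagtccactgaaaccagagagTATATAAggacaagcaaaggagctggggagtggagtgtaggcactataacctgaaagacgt
Mup21: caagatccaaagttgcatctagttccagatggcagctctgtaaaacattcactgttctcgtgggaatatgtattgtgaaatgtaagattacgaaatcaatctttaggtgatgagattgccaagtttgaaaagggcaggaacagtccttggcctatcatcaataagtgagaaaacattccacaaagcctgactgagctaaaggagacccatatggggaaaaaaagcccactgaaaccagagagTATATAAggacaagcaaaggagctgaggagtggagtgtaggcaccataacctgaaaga

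TATATAA was searched on both strands, where it was found in 12 of the 13 member promoters and in 3.2% of 32851 mouse promoters of the same length. The exception was Mup7, whose window ended upstream of the place where TATATAA lies in the other members. TTCNNNGAA, the letters of a STAT5-type site, was in 0 of 13 and in 8.3% of all promoters, which says only that these letters are not in these windows. Lined up on TATATAA and aligned over 200 bases, each gapped base counting as a difference, the Mup15 sequence was 100.0% identical to that of Mup19, and that of Mup17 97.0%. Over windows cut the same way Mup18 was 91.0%, Mup14 90.5%, Mup3 59.0% and Mup21 57.0% identical to Mup19. Central genes of the first run lay in the same range as those of the second. Mup11 was 96.5%, Mup9 96.0%, Mup2 93.5% and Mup10 91.5% identical to Mup19. Between the shared letters gacccata and TATATAA lies an A-rich stretch that differs in length. It was 66 bases long and 59.1% A in Mup19 and Mup15, 68 bases and 60.3% A in Mup17 and 61 bases and 68.9% A in Mup18. In the first run it was 68 bases long in Mup11, 70 in Mup9, 71 in Mup2 and 69 in Mup10. In Mup3 it was 34 bases and 50.0% A, and in Mup21 31 bases and 45.2% A. Because the 200-base windows were cut from TATATAA, this shorter stretch also shifted the upstream ends of the Mup3 and Mup21 windows. Their identities to Mup19 thus include the difference in length and are too low as a measure of the matching bases alone. These letters were chosen after the sequences had been seen.

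Other rows inside the cluster and beside it were read the same way. Of 4 rows in the span that are not Mup rows, 3 were tested, and Gm13775, a long non-coding RNA gene, was higher, at 19.3, 32.1 and 29.7 CPM with HFHC and 10.6, 14.2 and 12.5 CPM with chow. The groups did not overlap, the log2 fold change was 1.12 ± 0.19 (SE, edgeR adjusted p = 0.00934), and it was called in all 6 fits that left out 1 liver. It overlaps Mup-ps16 on the same strand, and 21.8% of the windows of Mup-ps16 are also in it, so their reads cannot be fully separated. Mup-ps16 itself read 1.27, 2.46 and 3.07 CPM against 1.52, 1.49 and 1.57 CPM and was not called (0.57 ± 0.30, SE, edgeR adjusted p = 0.304). Of the 20 nearest tested genes around the cluster, 10 on each side, edgeR called 0 higher and 1 lower. Of all tested genes, it called 6.67% in either direction. On the higher side 2 had an edgeR unadjusted p under 0.05, and DESeq2 called 1 and limma-voom 0. On the lower side 4 had an edgeR unadjusted p under 0.05, and DESeq2 called 1 and limma-voom 2. The gene that edgeR called lower was Ptbp3, an RNA-binding regulator of splicing, at 83.9, 85.2 and 78.9 CPM against 119, 96.6 and 115 CPM (-0.42 ± 0.09, SE, edgeR adjusted p = 0.0319). It was called in 1 of the 6 fits without a liver.

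The lipocalin family outside the Mups had 9 tested genes, of which edgeR called 1 lower and 0 higher. On the lower side 6 had an edgeR unadjusted p under 0.05, and DESeq2 called 3 and limma-voom 2. On the higher side 2 had an edgeR unadjusted p under 0.05, and DESeq2 called 1 and limma-voom 0. Of all tested genes, edgeR called 3.3% lower and 3.38% higher. Ptgds, a prostaglandin D synthase, fell from 1.56, 1.63 and 1.32 CPM with chow to 0.573, 0.256 and 0.402 CPM with HFHC (-1.86 ± 0.30, SE, edgeR adjusted p = 0.00841). Orm1, an acute-phase carrier protein encoded farther along chromosome 4, was at 375, 293 and 345 CPM against 413, 419 and 417 CPM and was not called (edgeR adjusted p = 0.105).

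The genes of the growth hormone pathway and the known regulators of hepatic transcription made a list of 28, of which 27 were tested. By edgeR 0 were higher, with 1 at an unadjusted p under 0.05, 1 by DESeq2 and 1 by limma-voom. On the lower side edgeR called 1, with 3 at an unadjusted p under 0.05, 1 by DESeq2 and 1 by limma-voom. Among all tested genes, edgeR called 3.38% higher, 3.3% lower and 6.67% in either direction. The 1 called of 27 was not above the share in either direction. Igf1, the secreted growth factor that growth hormone induces in liver, read 543, 549 and 598 CPM with HFHC and 759, 703 and 695 CPM with chow. All HFHC livers were below all chow livers (-0.35 ± 0.08, SE, edgeR adjusted p = 0.0376), though the call held in 1 of the 6 fits without a liver. The receptor Ghr (log2 fold change -0.04, edgeR adjusted p = 0.796), the signal carrier Stat5b (-0.27, adjusted p = 0.259) and Zhx2, a repressor of several liver genes (-0.07, adjusted p = 0.797), did not pass the test.

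The genes known to respond quickly to a growth hormone pulse varied between livers of the same diet. Cish, a feedback inhibitor induced by STAT5, read 35.6, 3.75 and 26.1 CPM in HFHC replicates 1, 2 and 3 and 6.41, 54.8 and 2.45 CPM in Chow replicates 7, 8 and 9. It was high in Chow replicate 8 and HFHC replicates 1 and 3, and low in the other 3. Onecut1, a hepatocyte transcription factor, was high in the same 3 livers, at 105, 23.5 and 91.2 CPM against 19.2, 126 and 10.5 CPM. Bcl6, a repressor that STAT5 lowers, was lowest in these 3 livers, at 8.91, 86.0 and 13.0 CPM against 35.1, 23.7 and 88.9 CPM. Socs2, another feedback inhibitor, had a narrower range, at 18.7, 8.09 and 18.7 CPM against 14.1, 19.8 and 9.93 CPM. None of the 4 differed between the diets by the test (edgeR adjusted p = 0.988 for Cish, 0.777 for Onecut1, 0.786 for Bcl6 and 0.948 for Socs2).

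Chow replicate 8, the chow liver with the most central Mup counts, thus also had the highest Cish and Onecut1 of the 6. HFHC replicate 2 was low in Cish and Onecut1 and yet read 1342 CPM of Mup15 and 1488 CPM of Mup17, above Chow replicate 8. Whether these genes have a part in the Mup levels was not tested. Without Chow replicate 8, 4 of the 27 tested genes of the list were called higher and 0 lower, where 3.46% and 3.63% of all tested genes were. The 4 were Onecut1 (2.31, edgeR adjusted p = 0.0387), Foxa2 (1.21, 0.0213), Foxa1 (0.73, 0.0288) and Cebpa (0.56, 0.0149), all encoding hepatocyte transcription factors.

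**Figure D5:**
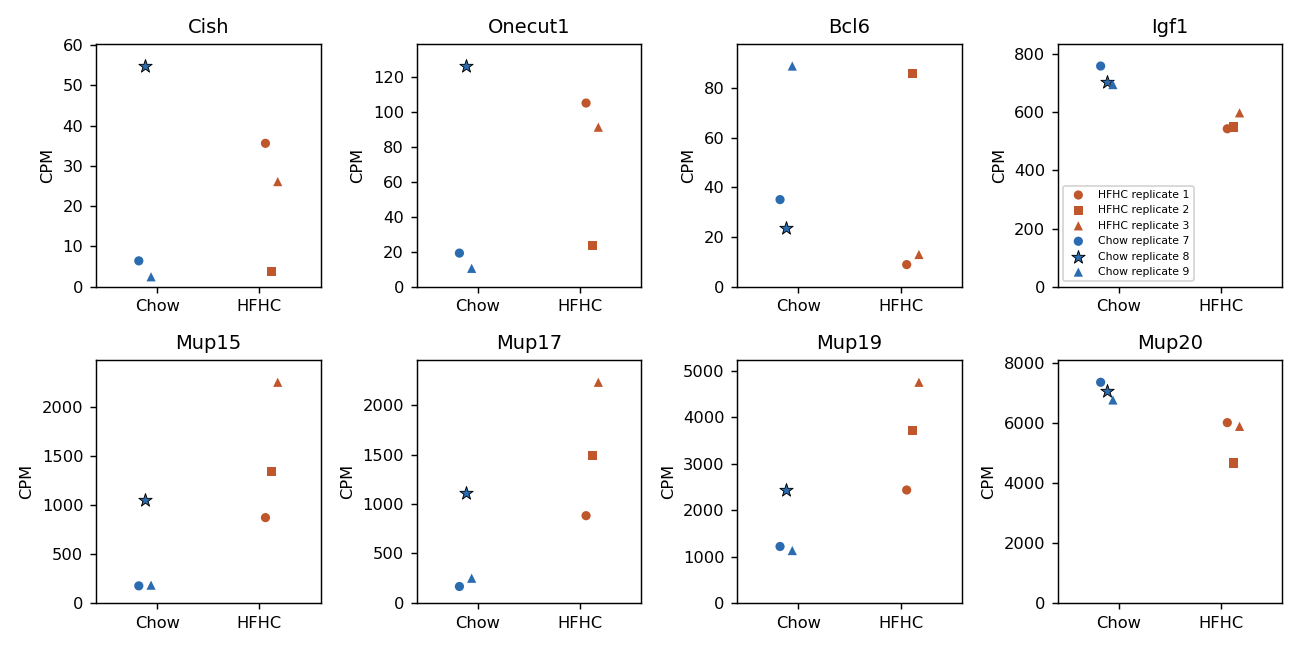
Level (CPM, axes from 0) of 4 genes of the growth hormone pathway and its regulators (top) and 4 Mup genes (bottom) in each liver. Chow replicate 8 (star) is highest in Cish and Onecut1 and stands between the diets or among the HFHC livers for Mup15, Mup17 and Mup19, while for Igf1 and Mup20 it lies with the other chow livers.

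Because Mups are more abundant in males, the other sex-biased genes of mouse liver were counted. Of 20 male-biased genes, all tested, 1 was higher and 6 lower, where 3.38% and 3.3% of all tested genes were. The list had a median log2 fold change of -0.42 against -0.003 over all genes. The 2 with the smallest p on the lower side were Gstp1 and Gstp2, glutathione transferases that conjugate electrophiles. Gstp1 read 440, 292 and 365 CPM with HFHC and 1382, 1355 and 1453 CPM with chow (-1.93 ± 0.14, SE, edgeR adjusted p = 1.5e-04). Gstp2, a near copy with 0.747 to 1.23 CPM against 3.61 to 4.37 CPM, cannot be read apart from it with certainty (-2.05, adjusted p = 0.00118). Cyp2u1, a fatty acid hydroxylase, was the 1 that was higher (0.42 ± 0.08, SE, edgeR adjusted p = 0.0155). Also lower were Serpina1e (-2.12), a protease inhibitor, Ugt2b1 (-0.74), a glucuronosyltransferase, Cspg5 (-1.20) and the complement component C6 (-0.49). They were called in 6, 6, 5 and 0 of the 6 edgeR fits without a liver. Of the 13 not called, Slco1a1, a bile acid and steroid carrier, was at -0.14 (edgeR adjusted p = 0.498), and Elovl3, a fatty acid elongase, at -0.35 (adjusted p = 0.309). DESeq2 and limma-voom each called 1 of the list higher and 9 lower.

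Of 21 female-biased genes, 9 were expressed highly enough to test. Of these, 2 were higher and 1 lower, where 3.38% and 3.3% of all tested genes were. Cyp2b9 rose from 0.228, 0.399 and 0.490 CPM to 1.94, 5.32 and 2.75 CPM (3.15 ± 0.45, SE, edgeR adjusted p = 0.00489). Cyp17a1, a steroid hydroxylase, rose from 2.69, 3.41 and 3.70 CPM to 9.99, 22.5 and 18.6 CPM (2.38 ± 0.28, SE, edgeR adjusted p = 0.00195). Cyp2b10, a drug-metabolizing enzyme, fell from 4.71, 2.39 and 9.24 CPM to between 0.0335 and 0.192 CPM, that is 1 to 6 counts (edgeR adjusted p = 0.00195).

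The livers were checked for the cell types they could hold. Hepatocyte markers summed to 87938 to 89379 CPM with HFHC and 80765 to 100617 CPM with chow. Albumin overlapped between the diets, while Tat, Cps1 and Apob were lower (3 of 9, where 3.3% of all tested genes were lower). Markers of Kupffer, stellate, sinusoidal endothelial, bile duct and lymphoid cells had 0 of 23 tested genes called in either direction by edgeR, DESeq2 or limma-voom with all libraries, and 3, all Kupffer cell markers, higher at an edgeR unadjusted p under 0.05. Over all tested genes, edgeR called 6.67% in either direction. The summed levels of these cell type markers overlapped between the diets, except for Kupffer cell markers, at 210.4 to 258.2 CPM with HFHC and 175.7 to 209.5 CPM with chow. Of the 2 erythroid markers Hba-a1 was higher (0.37, edgeR adjusted p = 0.0278), a call that held in 1 of the 6 fits without a liver. The 1 adipocyte marker in the table, Cfd, was at 0.382 to 1.70 CPM with HFHC and at 0 to 0.0377 CPM with chow. It was called higher (5.64, edgeR adjusted p = 0.0226), and in 4 of the 6 fits without a liver, with chow values below the level of 3 counts. The part of these cell types in the Mup values was not tested. In whole liver, fewer cells making a transcript and less of it per cell cannot be told apart.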

How the data were processed

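The authors deposited a table of estimated counts per gene for 6 libraries. The submitters' processing notes name STAR 2.7.3a, Partek 9 and the build mm10; for the annotation, the strand setting and the treatment of reads matching several genes, the choice was not given in the sources used here. Deposited counts were rounded, filtered with filterByExpr (minimum count 10), scaled by TMM and tested with edgeR 4.0.16 (quasi-likelihood, 3 HFHC against 3 Chow libraries, R 4.3.3), with Benjamini-Hochberg adjustment over 14896 genes. CPM uses TMM-scaled library sizes. For sums, the Mup rows were replaced by their total. The fit was tested on simulated data. DESeq2 1.42.0, limma 3.58.1, other scalings, other filters and leaving out each library were alternatives.

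Members and lists were chosen with earlier results of these data known. Named were the sums, tested peripheral genes, the 8 highest members, called members, up to 2 called genes per list and direction (otherwise the smallest p), and preset growth hormone genes. Table ends lay 1 base past GENCODE M21 and were printed as annotated. Littermates are the only stated link between mice. The p-values of the fits set the difference between the diets against the spread between these livers.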

Additional observations from a re-analysis of the deposited data

How the results depend on the processing

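No paired analysis was possible because the groups share no replicate number. The values of single central genes are limited by shared sequence. Member counts: rows called higher numbered 4, 3 with DESeq2 and 6 with limma-voom, and ranged from 1 to 9 when 1 library was left out, and 0 passed at an adjusted p under 0.01; rows called lower numbered 0, 1 with DESeq2, and 0 to 1 with a library left out. Sums: leaving out 1 library moved the family log2 fold change over -0.11 to 0.21 and the difference in share over -0.19 to 0.69 percentage points, both turning negative without HFHC replicate 3. The central sum ranged from 0.077 to 0.53 and the peripheral sum from -0.44 to -0.18. The pseudogene sum passed with DESeq2 (0.70). Lists: the hormone axis and regulator count (1) was 0 with upper-quartile scaling, 2 with DESeq2, 2 with limma-voom and 0 to 4 with a library left out. The flanking count (1) was 2 with each of those 3 settings and 0 to 2 with a library left out. The male-biased count (7) was 10 with DESeq2, 10 with limma-voom and 4 to 8 with a library left out. The female-biased count (3) was 5 with limma-voom and 3 to 5 with a library left out. Members near 0 changed sign: with limma-voom Mup11 and Mup22 were at -0.017 each, and with a library left out Mup7 ranged from -0.16 to 0.25, Mup10 from -0.11 to 0.26, Mup11 from -0.22 to 0.25, Mup12 from -0.36 to 0.17, Mup22 from -0.082 to 0.17 and Mup-ps6 from -0.56 to 0.10. The cause was not tested. The other scalings left the direction of each sum as reported.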
